A study of Mus musculus with 48 samples.

Results

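The phagocyte NADPH oxidase subunits examined here are 5 genes of the mouse macrophage line RAW264.7: Cybb, Cyba, Ncf1, Ncf4 and Rac2. They were taken by symbol from a table of 49568 genes, and each symbol matched 1 line. The study incubated RAW264.7 cells for 72 h, with fresh medium at 48 h, and asked how peptides copied from the HLA-DR β chain alter macrophage transcription with and without interferon gamma (IFN-γ). Cells received PBS as the control, IFN-γ (5 ng/ml), 1 of 3 synthetic peptides (100 µg/ml), or a peptide and IFN-γ at these doses. LE is the peptide of the lupus-risk allele DRB1*03:01, SE that of the rheumatoid arthritis-risk allele DRB1*04:01, and PE that of an allele tied to protection. Without IFN-γ the groups are PBS, LE, SE and PE, and with it they are IFN-γ, LE+IFN-γ, SE+IFN-γ and PE+IFN-γ. All 8 groups share a single transformed cell line. The values are read counts of polyadenylated RNA, given below as CPM (a gene's count per mega counts of the library).

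The phagocyte NADPH oxidase moves electrons from NADPH across a membrane to oxygen and so makes superoxide, the source of the oxidative burst against ingested microbes. Its membrane part, cytochrome b558, is a heterodimer of gp91phox (Cybb), which carries the haems and the flavin, and p22phox (Cyba), which stabilises it. In resting cells the organiser p47phox (Ncf1) and p40phox (Ncf4) wait in the cytosol, and on activation they move to the membrane together with a Rac GTPase, in phagocytes largely Rac2. Loss of any of these phox proteins causes chronic granulomatous disease, and Cybb is a classical IFN-γ-induced gene of macrophages.

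The labels name the 48 libraries in 2 ways, and the 24 named with a letter, 3 per group, were used for every comparison below. Their totals ran from 16.5 to 26.9 M counts (M for mega), with a median of 22.9 M, and each subunit had at least 4195 counts in each of them. The mean log2(CPM + 1) of 20 IFN-γ targets lay between 6.37 and 6.81 in the 12 letter-labelled libraries with IFN-γ and between 2.47 and 2.65 in the 12 without. Among the 24 libraries with an HLA label, 12 went against their label on this measure, so these are described only where named. In the deposited table none of the 8 HLA-labelled groups stands beside the letter columns of its own group, and by the group of the letter columns just before them all 24 HLA-labelled libraries had IFN-γ targets on the side of that group. Column order assigns no sample to a group, so the labels were kept, and the group of an HLA-labelled library is uncertain wherever its value is given. Macrophage markers (8 genes) summed to at least 6464 CPM in every letter-labelled library, whereas 8 neutrophil markers summed to at most 1.93 CPM and 6 lymphocyte markers to at most 0.271 CPM. The study bases its RAW264.7 data on 6 biological replicates, from 2 independent experiments, whereas 3 libraries per group are compared here. The labels do not say which library came from which experiment or culture, so the p-values measure the spread between the 3 letter-labelled libraries of a group. Whether this holds any spread between experiments is not known.

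By GENCODE M21 on GRCm38, all 5 genes are protein coding. Cybb lies on chromosome X at 9435252 to 9487771 on the minus strand, Cyba on chromosome 8 at 122424776 to 122432930 (minus), and Ncf1 on chromosome 5 at 134220053 to 134229625 (minus). Ncf4 lies on chromosome 15 at 78244801 to 78262580 (plus), and Rac2 on the same chromosome at 78559167 to 78572783 (minus), 297 kb away. A stretch of 408 exonic bases of Ncf1 is shared with Gtf2ird2 on the opposite strand, and the strand setting of the counting is not given in the sources used here, so reads in that stretch cannot be assigned with certainty.

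Promoter windows were matched for Cybb, Cyba and Ncf1 in the RefSeq table (GRCm38.p6). The 250 bases before each listed start are shown because Cybb and Cyba encode partners of a single heterodimer but differed in their response to IFN-γ. Capitals mark matches on either strand to an interferon-stimulated response element (ISRE, GAAANNGAAA), a gamma-activated site (GAS, TTCNNNGAA), the core bound by PU.1 (GAGGAA) or a composite element of PU.1 and an IRF (GGAANNGAAA).
Cybb, chrX:9469325-9469574, minus strand: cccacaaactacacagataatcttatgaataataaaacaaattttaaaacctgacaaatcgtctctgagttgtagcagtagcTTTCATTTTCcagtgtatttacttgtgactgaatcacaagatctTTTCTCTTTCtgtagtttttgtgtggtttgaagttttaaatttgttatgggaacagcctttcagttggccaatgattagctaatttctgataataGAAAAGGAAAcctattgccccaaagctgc
Cyba, chr8:122432941-122433190, minus strand: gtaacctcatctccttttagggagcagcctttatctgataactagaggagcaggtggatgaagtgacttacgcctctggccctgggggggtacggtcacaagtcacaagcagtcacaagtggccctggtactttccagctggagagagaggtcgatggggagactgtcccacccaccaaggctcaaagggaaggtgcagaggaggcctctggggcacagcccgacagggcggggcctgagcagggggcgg
Ncf1, chr5:134229626-134229875, minus strand: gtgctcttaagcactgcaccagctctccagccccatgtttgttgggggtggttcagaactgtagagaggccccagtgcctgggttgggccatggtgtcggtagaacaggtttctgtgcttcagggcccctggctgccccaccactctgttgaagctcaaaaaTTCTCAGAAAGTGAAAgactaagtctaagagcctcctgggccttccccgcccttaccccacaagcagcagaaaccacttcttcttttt

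The Cybb window held 3 ISRE matches, at -168 to -159, -124 to -115 and -29 to -20 from the listed start. A composite PU.1 and IRF match lay just after that start, at 4 to 13, and overlapped the only PU.1 core match of the window. It is shown in capitals within its 30 bases.
Cybb composite match, chrX:9469302-9469331, minus strand: aagctgctgtTTTCATTTCCtcatcagaag
The listed start lies within the annotated span of Cybb, since other transcripts of the gene begin farther upstream. Ncf1 held 1 ISRE match at -82 to -73, overlapping a palindromic GAS match at -88 to -80. Cyba held no match to the 4 motifs. Over 32817 RefSeq windows of 300 bases (the 250 bases before each start and the 50 after it), 3.43% held an ISRE match, 8.29% a GAS match, 2.72% a composite match and 28.3% a PU.1 core. A match describes the letters of the window and not a bound site.

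Levels of different genes can be set side by side only per length, here as CPM per kb of the union of a gene's exons, a length that can exceed that of the transcripts in use. On that scale Cyba had the highest level in each of the 8 groups, with group means from 677 to 929 CPM per kb. Group means of Rac2 ran from 158 to 242 CPM per kb, those of Ncf4 from 101 to 175 and those of Ncf1 from 84.1 to 133. Cybb was the lowest of the 5 in all 4 groups without IFN-γ, with 41.7 CPM per kb in SE at the least, and reached 234 CPM per kb in LE+IFN-γ. The mean ratio of Cybb to Cyba per length was 0.0864 ± 0.0112 (SD, n = 3) in PBS, 0.215 ± 0.0473 in IFN-γ and 0.346 ± 0.0300 in LE+IFN-γ. In SE+IFN-γ it was 0.185 ± 0.0253 and in PE+IFN-γ 0.129 ± 0.0244, and in the 3 peptide groups without IFN-γ it lay between 0.0458 and 0.0532. The ratio of the heterodimer's transcripts was thus highest in LE+IFN-γ and lowest in the peptide groups without IFN-γ, whose libraries overlapped. No test was run on the ratio.

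**Figure D1:**
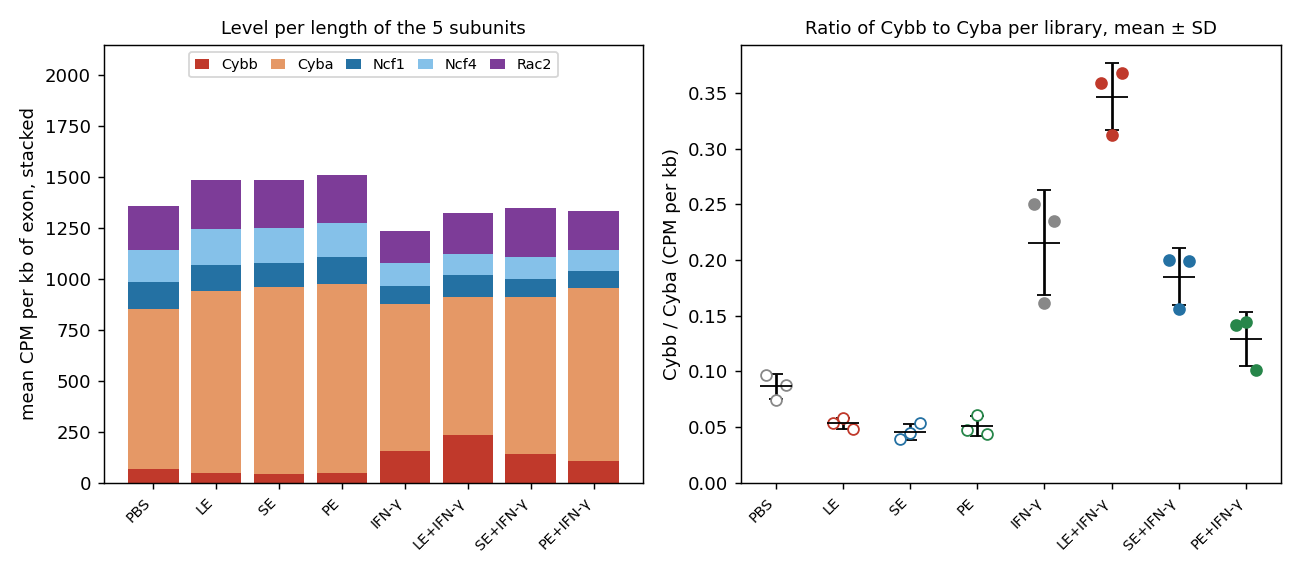
The left panel stacks the mean CPM per kb of exon of the 5 subunits in each of the 8 groups, and the right panel plots the ratio of Cybb to Cyba on that scale in each of 24 libraries (open points without IFN-γ, filled points with it), with the mean ± SD. Cyba makes the largest block in every group, and the ratio is highest in LE+IFN-γ, where the 3 libraries sit between 0.312 and 0.368.

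The first comparison asked what IFN-γ did without a peptide. Cybb rose, whereas Ncf1, Ncf4 and Rac2 fell, and Cyba did not pass the test. To be called, a gene needed an adjusted p (Benjamini-Hochberg, edgeR's quasi-likelihood test) under 0.05 and a fold change over 1.5, and a gene that met only the first condition is said to have passed the adjusted p alone. Of the 5 subunits 1 (Cybb) was called and 4 passed the adjusted p. Of all 12242 genes tested in that comparison 18.1% were called and 39.7% passed the adjusted p. The next paragraphs go through the members in the order of the complex, with the comparisons of Model A (a peptide with IFN-γ against IFN-γ), Model B (a peptide with IFN-γ against that peptide) and the peptides alone. Several of these share libraries, so the values of a member in them are not independent of each other.

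Cybb, the catalytic subunit, was measured at 445, 356 and 381 CPM in the PBS libraries and at 975, 735 and 967 CPM in the IFN-γ libraries. Every IFN-γ library exceeded every PBS library. The log2 fold change was 1.20 (SE 0.115, edgeR adjusted p = 1.07e-05), or 2.29-fold. A change larger in size was found for 6.89% of the genes tested in that comparison.

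With LE and IFN-γ the Cybb libraries stood at 1394, 1229 and 1462 CPM, all above those with IFN-γ alone. The log2 difference was 0.62 (SE 0.108, edgeR adjusted p = 0.000111). The fold change of 1.54 lay close to the minimum of 1.5, and without replicate 2 of each group the log2 value was 0.57 and Cybb was no longer called, though its adjusted p was 3.28e-05 in edgeR. With SE and IFN-γ the values were 861, 733 and 873 CPM. They overlapped those of IFN-γ, and the log2 difference of -0.09 did not pass the test (95% interval -0.32 to 0.13, edgeR adjusted p = 0.555). PE and IFN-γ gave 672, 687 and 528 CPM, below all 3 IFN-γ libraries. The log2 difference was -0.48 (SE 0.108, edgeR adjusted p = 0.0137). This value did not keep its side of the test, since edgeR's adjusted p was 0.173 without replicate 1 and 0.191 without replicate 3, while without replicate 2 the log2 value was -0.67 and Cybb was called.

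Set directly against each other under IFN-γ, the peptides differed in Cybb. On the log2 scale LE+IFN-γ exceeded SE+IFN-γ by 0.72 (SE 0.108, edgeR adjusted p = 0.000133) and PE+IFN-γ by 1.10 (SE 0.109, edgeR adjusted p = 1.64e-07). Both differences were called, and the libraries did not overlap. SE+IFN-γ exceeded PE+IFN-γ by 0.39 (SE 0.108, edgeR adjusted p = 0.00963), with no overlap, but this fold change was under 1.5 and the adjusted p was 0.0667 without replicate 1 and 0.141 without replicate 3. The order of Cybb under IFN-γ was thus LE, then IFN-γ alone and SE, which did not differ beyond their spread, then PE.

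Without IFN-γ the order was another. The Cybb libraries stood at 285, 278 and 261 CPM with LE, at 221, 245 and 260 CPM with SE and at 264.6, 293 and 256 CPM with PE, all below the lowest PBS library. SE against PBS gave a log2 difference of -0.63 (SE 0.0815, edgeR adjusted p = 0.00162) and was called, although the value without replicate 1 was -0.48 with an adjusted p of 0.0913. PE against PBS gave -0.45 (SE 0.0813, edgeR adjusted p = 0.00578, and 0.185 without replicate 1). LE against PBS gave -0.47, of about the same size, with an edgeR adjusted p of 0.0617. Only 3 genes were called in the LE comparison, and for Cybb the adjusted p was 0.000140 with DESeq2 and 7.47e-07 with no filter on low counts in edgeR. The 3 comparisons share the PBS libraries.

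The response of Cybb to IFN-γ in the presence of each peptide followed from these levels. In Model B the log2 change was 2.29 with LE (SE 0.0938, edgeR adjusted p = 2.42e-14), a 4.88-fold rise. For SE it was 1.72 (SE 0.0923, edgeR adjusted p = 2.44e-12) and with PE 1.161 (SE 0.0911, edgeR adjusted p = 1.35e-09). All 3 were called, with no overlap between libraries. The interaction term tests whether the response to IFN-γ with a peptide differs from that without one. For LE the term, in log2, was 1.09 (SE 0.151, edgeR adjusted p = 6.78e-06). For SE it was 0.53 (SE 0.151, edgeR adjusted p = 0.0149), although its adjusted p was 0.241 without replicate 1, and without replicate 3 it was called at 0.65. For PE it was -0.04 (95% interval -0.35 to 0.27, edgeR adjusted p = 0.948).

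**Figure D2:**
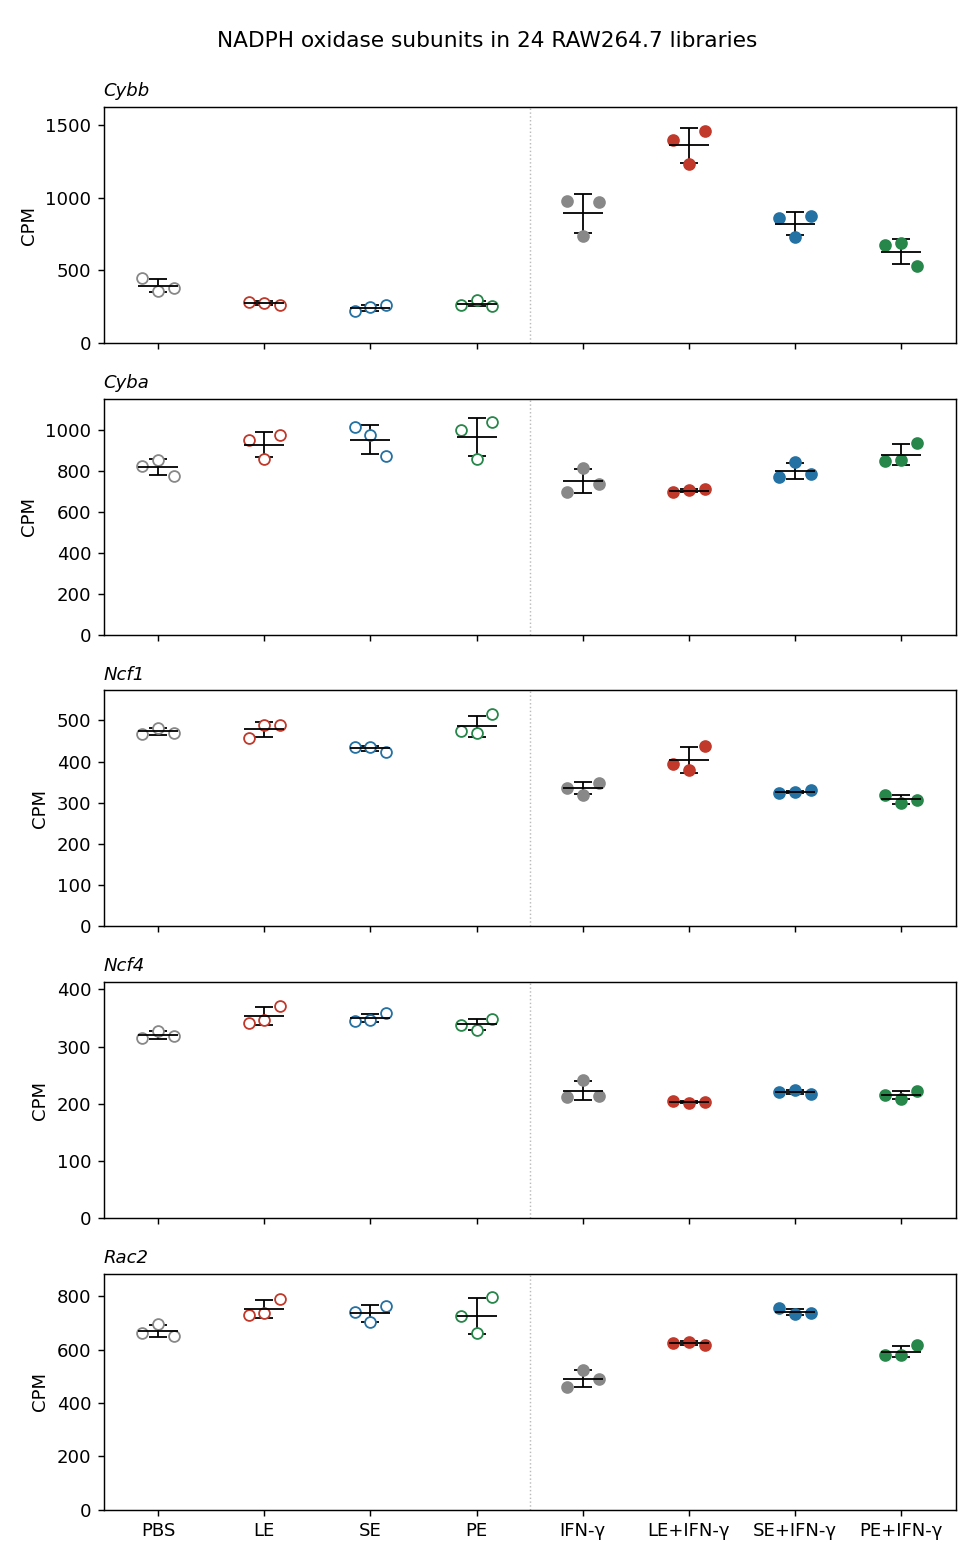
Each panel plots 1 subunit, with CPM from 0 on the vertical axis and the 8 groups on the horizontal axis. Points are the 3 letter-labelled libraries of a group, open without and filled with IFN-γ, and bars give the mean ± SD. Cybb rises with IFN-γ and stands highest in LE+IFN-γ, whereas Ncf1 and Ncf4 stand lower in the 4 groups with IFN-γ.

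Cyba, the partner that stabilises gp91phox, moved little. Its PBS libraries stood at 823, 854 and 775 CPM and its IFN-γ libraries at 698, 814 and 738 CPM, and the groups overlapped. The log2 change was -0.11 (95% interval -0.29 to 0.07, edgeR adjusted p = 0.325). The group means of Cyba spanned a ratio of 1.37 over the 8 groups, against 5.62 for Cybb.

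With LE and IFN-γ Cyba stood at 695, 705 and 710 CPM, within the range of the IFN-γ group or just under it. With SE and IFN-γ it stood at 770, 842 and 784 CPM, and with PE and IFN-γ at 846, 853 and 937 CPM. Only the PE libraries lay wholly above those with IFN-γ alone, a log2 difference of 0.26 (SE 0.0615, edgeR adjusted p = 0.0183), and this was lost without replicate 1 (0.186) or replicate 3 (0.217) and at an adjusted p of 0.0838 in a fit of all 8 groups. LE+IFN-γ lay below PE+IFN-γ by a log2 difference of -0.33 (SE 0.0615, edgeR adjusted p = 0.000150). Against SE+IFN-γ the difference was -0.19 (SE 0.0615, edgeR adjusted p = 0.0203), lost without any of the 3 replicates (0.0524 to 0.111).

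Without IFN-γ, Cyba stood at 950, 857 and 973 CPM with LE, at 1013, 974 and 873 CPM with SE and at 1000, 859 and 1037 CPM with PE, in each case above all PBS libraries. SE against PBS gave 0.29 (SE 0.0893, edgeR adjusted p = 0.0423) and PE 0.33 (SE 0.0893, edgeR adjusted p = 0.0219), while LE gave 0.23 and did not pass (edgeR adjusted p = 0.263). The values for SE and PE were lost without replicate 1 or replicate 3, with adjusted p from 0.0987 to 0.352. In Model B Cyba was lower with IFN-γ, at a log2 change of -0.42 with LE (standard error 0.0801, adjusted p = 9.75e-05 in edgeR) and -0.30 for SE (standard error 0.0800, adjusted p = 0.00341, and 0.143 without replicate 1), with no overlap. With PE the libraries overlapped and the log2 value was -0.19 (edgeR adjusted p = 0.0549, and 0.0443 with DESeq2). The interaction of LE and IFN-γ was -0.32 (SE 0.115, edgeR adjusted p = 0.0318), lost without replicate 1 (0.117) or replicate 3 (0.208).

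Ncf1 encodes p47phox, the organiser that binds p22phox once phosphorylated. It stood at 467, 482 and 469 CPM in PBS and at 337, 319 and 349 CPM with IFN-γ, without overlap. The log2 fold change was -0.48 (SE 0.0694, edgeR adjusted p = 0.000220), under the 1.5-fold minimum. With LE and IFN-γ it was higher, at 393, 379 and 438 CPM, above all libraries with IFN-γ alone. The log2 difference was 0.28 (SE 0.0590, edgeR adjusted p = 0.000652).

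SE with IFN-γ gave 324, 325 and 330 CPM of Ncf1 and PE with IFN-γ 319, 298 and 307 CPM. Neither differed from IFN-γ in the test, at log2 differences of -0.01 (95% interval -0.14 to 0.11, edgeR adjusted p = 0.911) and -0.09 (95% interval -0.22 to 0.03, edgeR adjusted p = 0.321). LE+IFN-γ exceeded SE+IFN-γ by 0.29 (SE 0.0590, edgeR adjusted p = 0.00119) and PE+IFN-γ by 0.38 (SE 0.0591, edgeR adjusted p = 3.08e-05). Under IFN-γ the LE libraries were therefore the highest for Ncf1, as they were for Cybb.

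The peptides alone left Ncf1 at 456, 488 and 489 CPM (LE), 436, 436 and 424 CPM (SE) and 474, 469 and 515 CPM (PE). No peptide passed the test against PBS, with log2 differences from -0.06 to 0.13. In Model B the log2 change was -0.27 for LE (SE 0.0648, edgeR adjusted p = 0.00105, and 0.0642 without replicate 2), -0.45 for SE (SE 0.0650, edgeR adjusted p = 6.32e-06) and -0.71 with PE (SE 0.0652, edgeR adjusted p = 1.44e-08). Only the PE change was called. None of the 3 interaction terms passed the test for Ncf1, and that of LE was 0.21 (95% interval 0.02 to 0.40, edgeR adjusted p = 0.0712).

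Ncf4, which encodes p40phox, the subunit that binds phosphatidylinositol 3-phosphate on phagosomes, stood lower in every library with IFN-γ than in any without it. The 12 libraries without IFN-γ lay between 315 and 372 CPM and the 12 with it between 201 and 242 CPM. In PBS the values were 315, 328 and 319 CPM and with IFN-γ 212, 242 and 213 CPM. The log2 change was -0.51 (SE 0.0739, edgeR adjusted p = 0.000222), just under the 1.5-fold minimum.

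In Model B Ncf4 was called lower with every peptide. It went from 341, 347 and 372 CPM with LE to 205, 201 and 204 CPM with LE+IFN-γ, a log2 change of -0.82 (SE 0.0573, edgeR adjusted p = 1.02e-10). SE took it from 344, 347 and 358 to 221, 224 and 217 CPM, a change of -0.71 (SE 0.0572, edgeR adjusted p = 1.56e-09), and PE from 338, 329 and 349 to 216, 209 and 223 CPM, a change of -0.70 (SE 0.0573, edgeR adjusted p = 2.40e-09). Ncf4 passed the test in none of the Model A, peptide against peptide or peptide against PBS comparisons, with log2 values from -0.13 to 0.20. For SE against PBS the edgeR adjusted p was 0.0543, and it was 0.0251 with DESeq2. The interaction of LE and IFN-γ was -0.31 (SE 0.0851, edgeR adjusted p = 0.00566), with adjusted p of 0.0521 and 0.0567 without replicate 2 and replicate 3.

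Rac2, the GTPase that switches the assembled oxidase on, had a pattern of its own. It stood at 663, 695 and 651 CPM in PBS and at 460, 522 and 491 CPM with IFN-γ, a log2 change of -0.43 (SE 0.0761, edgeR adjusted p = 0.000914) without overlap. Each peptide with IFN-γ then stood above IFN-γ alone. The highest was SE, at 756, 733 and 736 CPM, with a log2 difference of 0.62 (SE 0.0530, edgeR adjusted p = 9.41e-08), the only call for Rac2 in any comparison. Without replicate 1 it was 0.56 (edgeR adjusted p = 7.47e-05) and fell short of the fold minimum.

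LE with IFN-γ gave 625, 631 and 618 CPM of Rac2, a log2 difference of 0.36 from IFN-γ (SE 0.0529, edgeR adjusted p = 1.98e-05). PE with IFN-γ gave 580, 580 and 616 CPM, 0.30 above it (SE 0.0529, edgeR adjusted p = 0.00530, and 0.117 and 0.111 without replicate 1 and replicate 3). SE+IFN-γ exceeded LE+IFN-γ, where the log2 difference of LE against SE was -0.26 (SE 0.0527, edgeR adjusted p = 0.00126), and PE+IFN-γ by 0.32 (SE 0.0528, edgeR adjusted p = 0.000136). LE+IFN-γ and PE+IFN-γ did not differ in the test, at 0.06 (95% interval -0.05 to 0.17, edgeR adjusted p = 0.308). The order for Rac2 under IFN-γ was SE, then LE and PE, then IFN-γ alone.

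Without IFN-γ, Rac2 stood at 729, 738 and 789 CPM with LE, 743, 703 and 765 CPM with SE and 726, 662 and 796 CPM with PE, and no peptide passed the test against PBS (log2 0.21 to 0.22, edgeR adjusted p 0.0887 to 0.261). In Model B its log2 change was -0.29 for LE (SE 0.0718, edgeR adjusted p = 0.00122), and that for PE was -0.35 (SE 0.0719, edgeR adjusted p = 0.000373). With SE the libraries overlapped and the log2 value was -0.03 (95% interval -0.18 to 0.12, edgeR adjusted p = 0.716). The interaction of SE and IFN-γ was 0.40 (SE 0.104, edgeR adjusted p = 0.00751, and 0.151 without replicate 1), while those of LE and PE did not pass, at 0.14 and 0.07.

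**Figure D3:**
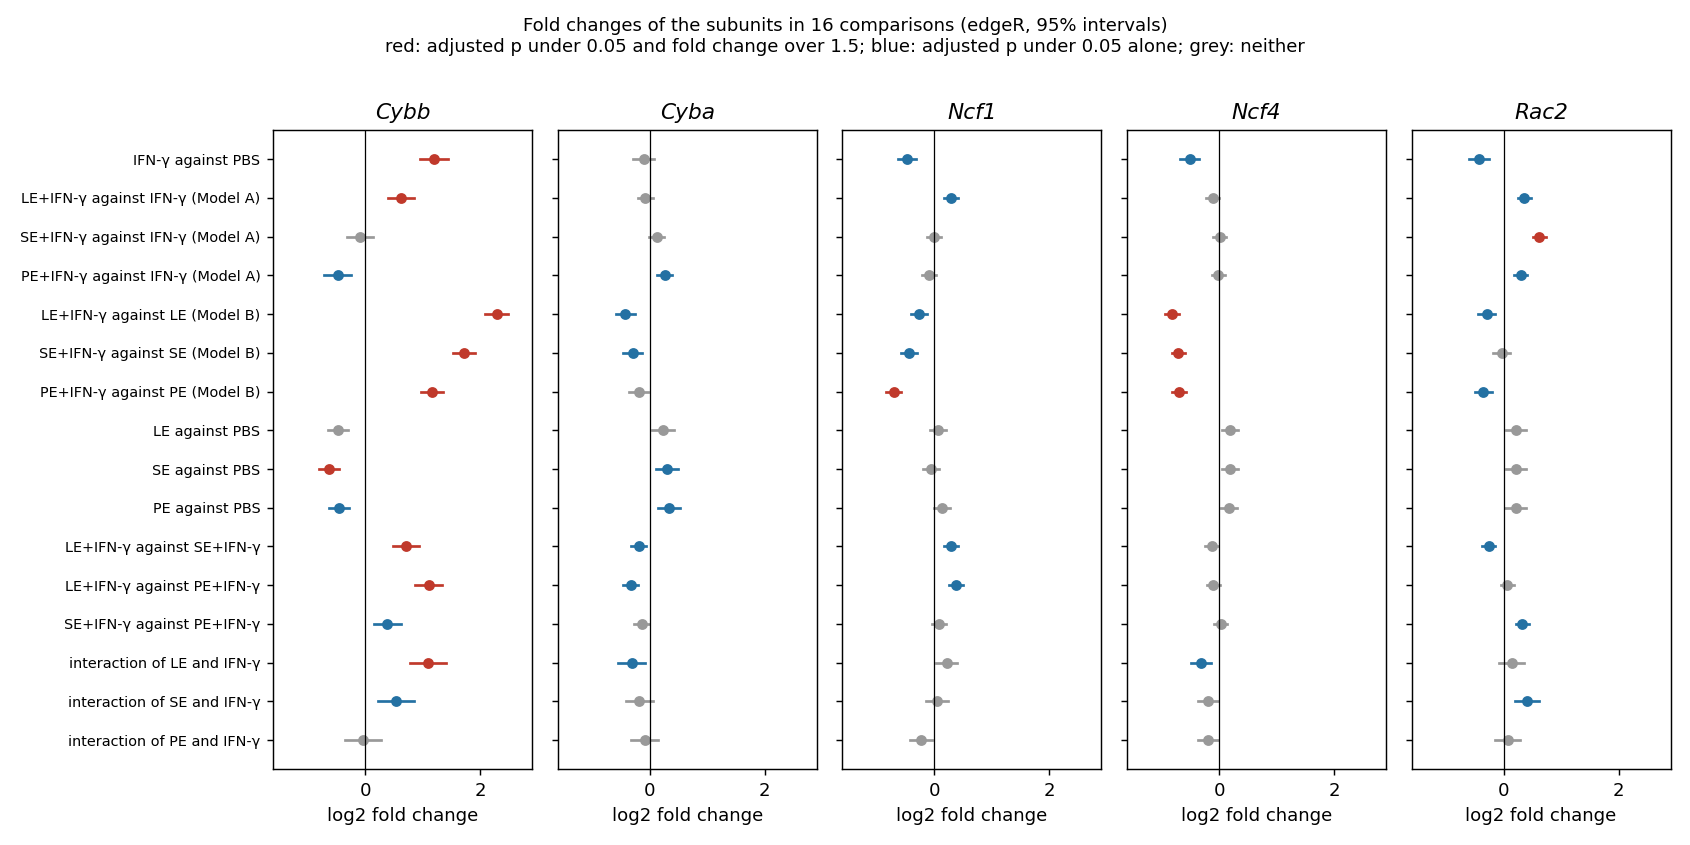
Points give the log2 fold change of each subunit in the 16 comparisons and lines its 95% interval from edgeR. Red marks an adjusted p under 0.05 with a fold change over 1.5, blue an adjusted p under 0.05 alone and grey neither. Cybb holds 9 of the 14 calls and has both the largest rise (2.29, Model B with LE) and the only called fall without IFN-γ (-0.63, SE against PBS).

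Over the 16 comparisons 42 of the 80 tests of a member passed the adjusted p and 14 were called. These counts are read against the share of all genes in the same comparison. In Model A, LE had 1 call (Cybb) and 3 subunits past the adjusted p, where 15.5% of genes were called and 50.5% passed. SE had 1 call (Rac2) and 1 pass, with 7.39% and 33.4% of genes. PE had 0 calls and 3 passes, with 0.629% and 10% of genes. In Model B, LE had 2 calls and 5 passes (35.1% and 65.9% of genes), SE 2 calls and 4 passes (26.3% and 57.5%) and PE 3 calls and 4 passes (21% and 49.9%). Against PBS, LE had 0 calls and 0 passes (0.0242% of genes on both rules), SE 1 call and 2 passes (1.92% and 14.3%) and PE 0 calls and 2 passes (3.13% and 20%).

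Among the direct comparisons under IFN-γ, LE against SE had 1 call and 4 passes (4.93% and 35.6% of genes), LE against PE 1 call and 3 passes (21.6% and 59.9%) and SE against PE 0 calls and 2 passes (7.59% and 34.4%). The interaction of LE and IFN-γ had 1 call and 3 passes (18.9% and 38.5%), and that of SE 0 calls and 2 passes (7.96% and 19.8%). For PE no subunit and no gene passed the interaction test in edgeR (0% on both rules), 1073 of 13096 genes had an unadjusted p under 0.05, and DESeq2 called 0 genes. With 5 members, a count that stands near such a share is a description and not a result about the complex.

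The other genes of the pathway were read from a list of 22 partners, regulators and relatives, of which 14 had counts enough to be tested for IFN-γ against PBS. None was called higher and 2 lower, with 4 past the adjusted p upward and 2 downward, and the median log2 change was -0.00014 against -0.00871 over all genes tested. Of all genes 18.1% were called and 39.7% passed, and the counts of this list stood near these shares. The calls were Prex1, an exchange factor for Rac, at -0.80 (SE 0.0830, edgeR adjusted p = 1.86e-05), and Hvcn1, the proton channel that balances the charge moved by the oxidase, at -0.69 (SE 0.150, edgeR adjusted p = 0.00368). Vav1, another exchange factor, passed at 0.50 (SE 0.0708, edgeR adjusted p = 0.000179), and Cybc1, a chaperone of the membrane heterodimer, at 0.33 (SE 0.0782, edgeR adjusted p = 0.00569).

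In Model A, LE had 1 of 15 tested genes of this list called higher and none lower, and SE and PE had none. Over all genes 15.5% were called with LE, 7.39% with SE and 0.629% with PE. The call was Nox3, a homologue of Cybb known from the inner ear, at a trace level of 1.68 ± 0.0545 CPM in LE+IFN-γ against 0.685 ± 0.268 CPM in IFN-γ (log2 1.28, SE 0.282, edgeR adjusted p = 0.000990). Among the passes under LE were Arhgdib, a GDP-dissociation inhibitor that holds Rac in the cytosol, at -0.47 (SE 0.0547, edgeR adjusted p = 1.73e-06), and Prkcd, a kinase able to phosphorylate p47phox, at -0.34 (SE 0.0517, edgeR adjusted p = 2.88e-05). Rac1, the ubiquitous relative of Rac2, ranged from 230 to 297 CPM over the 24 libraries. The other catalytic homologues were near the floor. Nox4 and Duoxa2 had 0 counts in all 24 libraries, where 3 counts would be 0.111 to 0.182 CPM, and Nox1 had at most 19 counts and Duox1 at most 2 in any library.

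Of 15 genes that handle superoxide and peroxide, 13 were tested for IFN-γ against PBS, 3 were called higher and none lower, and the median log2 change was 0.09. A further 2 passed the adjusted p upward and 2 downward, and a share of 3 in 13 stands near the 18.1% of all genes called. The calls were Prdx5 at 1.31 (SE 0.0826, edgeR adjusted p = 3.08e-07), Prdx1 at 1.30 (SE 0.101, edgeR adjusted p = 1.75e-06), both peroxiredoxins, and catalase (Cat) at 1.04 (SE 0.104, edgeR adjusted p = 1.44e-05). Cat had 188 ± 25.2 CPM in PBS and 380 ± 41.1 CPM in IFN-γ (SD, n = 3). With SE and IFN-γ, Prdx5 was called higher again against IFN-γ alone, at 0.70 (SE 0.0490, edgeR adjusted p = 9.73e-09), and no gene of this list was called with LE or PE in Model A. Of all genes 7.39% were called there with SE, 15.5% with LE and 0.629% with PE. Sod3, the extracellular superoxide dismutase, had 0 counts in all 24 libraries.

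Among factors known to act at the Cybb promoter, Irf1 and Irf8 were called higher with IFN-γ. On the log2 scale Irf1 rose by 2.84 (SE 0.112, edgeR adjusted p = 5.02e-09) and Irf8 by 0.76 (SE 0.0767, edgeR adjusted p = 1.55e-05). Spi1, which encodes PU.1, was at -0.10 and Crebbp at 0.21, and neither passed. LE with IFN-γ against IFN-γ, the comparison in which Cybb was called higher, showed Irf8 at 0.33 (SE 0.0561, edgeR adjusted p = 9.91e-05) and Irf1 at -0.40 (SE 0.0903, edgeR adjusted p = 0.00130), neither of them called. SE with IFN-γ had Irf1 called lower, at -0.64 (SE 0.0910, edgeR adjusted p = 3.21e-05).

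Osteoclast markers moved with IFN-γ, and under IFN-γ some were called higher with LE and SE. Of 8 listed, 7 were tested, 4 were called lower and 1 higher in IFN-γ against PBS, and Calcr had at most 1 count in any library. Over all genes 18.1% were called in that comparison. Their summed level was 360 to 415 CPM in PBS, 109 to 120 in IFN-γ, 180 to 196 in LE+IFN-γ, 158 to 176 in SE+IFN-γ and 110 to 123 in PE+IFN-γ. With a peptide alone it overlapped that of PBS, at 383 to 437 CPM in LE, 370 to 417 in SE and 344 to 401 in PE. In Model A 3 were called higher with LE, 2 with SE and 0 with PE, against 15.5%, 7.39% and 0.629% of all genes. The part of this shift in the values of the subunits was not tested, and in bulk RNA fewer cells of a type and less RNA per cell cannot be told apart.

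Macrophage markers moved too, as did some dendritic cell markers. The 8 macrophage markers summed to 9259 to 10191 CPM in PBS, 6886 to 7559 in IFN-γ, 8088 to 8891 in LE+IFN-γ, 7671 to 7877 in SE+IFN-γ and 6464 to 6718 in PE+IFN-γ. For IFN-γ against PBS 2 were called higher, Fcgr1, a high-affinity Fc receptor, at 1.55 (SE 0.121, edgeR adjusted p = 1.91e-06) and Adgre1, which encodes F4/80, at 0.77 (SE 0.0799, edgeR adjusted p = 1.96e-05), while Cd68, Csf1r, Lyz2 and Cd14 passed the adjusted p alone at log2 changes of -0.35 to -0.55. In Model A, LE had Adgre1 (0.93, SE 0.0679, edgeR adjusted p = 6.67e-09) and Itgam, an integrin chain (0.80, SE 0.0643, edgeR adjusted p = 2.22e-08), called higher. Mrc1, at a mean of 1.48 CPM or less in every group, was called lower there. SE had Adgre1 called higher and Mrc1 lower, and PE had no call, with 1 marker past the adjusted p upward and 3 downward. Of all genes, 18.1% were called for IFN-γ against PBS, and 15.5%, 7.39% and 0.629% in Model A with LE, SE and PE.

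Of 5 dendritic cell markers, Clec9a had 0 counts in all 12 letter-labelled libraries without IFN-γ and 4.54 ± 2.15 CPM in IFN-γ, 8.73 ± 1.25 in LE+IFN-γ, 8.14 ± 1.48 in SE+IFN-γ and 4.51 ± 0.783 in PE+IFN-γ (SD, n = 3). The summed level of the 5 was 1.73 to 2.17 CPM in PBS, 4.01 to 7.87 in IFN-γ and 8.64 to 11.5 in LE+IFN-γ. Zbtb46 did not pass in IFN-γ against PBS (log2 -0.20, edgeR adjusted p = 0.581) or in Model A with LE (-0.46, edgeR adjusted p = 0.195). Xcr1 was not tested in the first and did not pass in the second (0.79, edgeR adjusted p = 0.187). Flt3 had at most 1 count and Cd209a at most 3 in any letter-labelled library. Macrophage markers and Clec9a thus shifted in IFN-γ against PBS and in Model A with LE, comparisons in which Cybb was called. They also shifted in Model A with the SE peptide, where Cybb did not pass the test (log2 -0.09). There Adgre1 was called at 0.65 and Clec9a at 0.88 (edgeR adjusted p = 1.08e-06 and 0.0122). Xcr1, with at most 18 counts in any letter-labelled library, was called at 1.37 (edgeR adjusted p = 0.0267). The part of these markers in the values of the subunits was not tested.

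Likeness of pattern was measured as Pearson's r of log2(CPM + 1) over the 24 libraries with 8625 other genes of at least 10 CPM on average. These libraries share their groups and the split by IFN-γ, so high values are common, and r is given as a description. Nearest to Cybb were Samhd1 (r = 0.98), Lyn (0.98) and Ms4a6c (0.98). Cyba was nearest to Dctpp1 (0.95), Edf1 (0.95) and Rpl37rt (0.94). Ncf1 came closest to Csf1r (0.97), the receptor for macrophage colony-stimulating factor, followed by Nf2 (0.96) and Cldn11 (0.96). Ncf4 lay nearest to Dap (0.99), Aldoc (0.99) and Klc4 (0.98), and Rac2 to Mapk3 (0.94), Clec4d (0.93) and Pstpip1 (0.92). No gene was among the nearest 3 of more than 1 subunit.

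**Figure D4:**
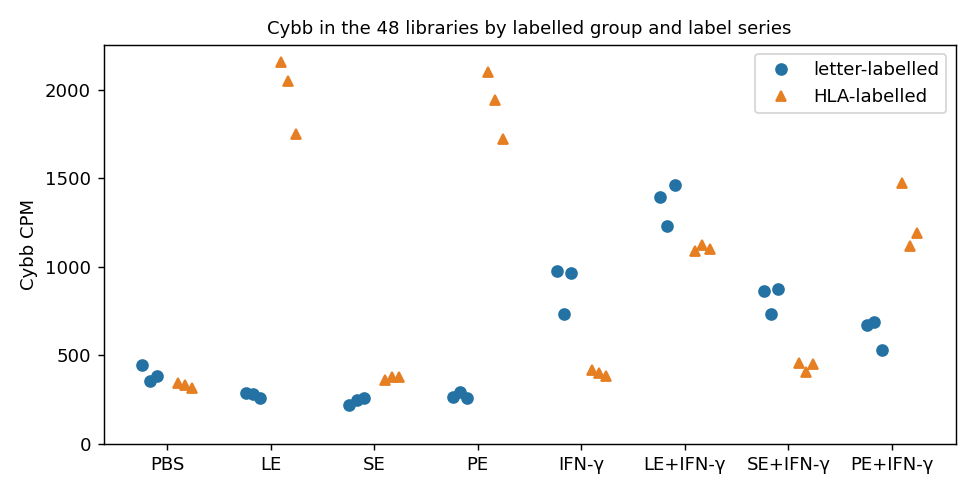
Points are the CPM of Cybb in all 48 libraries by labelled group, circles for the letter-labelled and triangles for the HLA-labelled libraries. The HLA-labelled libraries of LE and PE sit at 1721 CPM or more although they carry no IFN-γ in their label, and those of IFN-γ and SE+IFN-γ at 456 CPM or less.

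In the HLA-labelled libraries Cybb stood at 330 ± 13.3 CPM in PBS, 1987 ± 211 in LE, 371 ± 7.39 in SE and 1921 ± 190 in PE (SD, n = 3). Among those labelled with IFN-γ it was 398 ± 16.7 CPM in IFN-γ, 1104 ± 15.6 in LE+IFN-γ, 436 ± 28.4 in SE+IFN-γ and 1259 ± 188 in PE+IFN-γ. These groups are those of the labels, and the doubt raised by the column order touches each value. In the table, those labelled LE follow the letter columns of SE+IFN-γ and those labelled PE follow LE+IFN-γ, while those labelled IFN-γ follow PE and those labelled SE+IFN-γ follow PBS. The 4 groups of libraries high in Cybb were the 4 whose IFN-γ targets were high. Group means of Cyba, Ncf1, Ncf4 and Rac2 were lower here than in the letter-labelled libraries under every label. Those of Cyba lay at 363 to 419 CPM. In PBS, Ncf1 stood at 236 against 473 CPM, Ncf4 at 200 against 321 and Rac2 at 318 against 670. The gap was smallest for Ncf1 in SE+IFN-γ, at 321 against 326 CPM.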

How the data were processed

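Messenger RNA of 48 RAW264.7 libraries was sequenced as 100-base single-end reads. Per the study's methods, the authors counted uniquely aligned reads per gene with featureCounts (Rsubread 1.5.0p3) on GENCODE M12 and GRCm38.p5, and tested them with DESeq2 1.16.1 in R 3.4.1. The aligner is not given in the sources used here. The deposited values are raw whole-number counts. In the gene column 26 names were dates and 4 lines had a repeated name, and these stayed in the totals.

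Groups followed the labels. Counts were fitted with edgeR 4.0.16 (TMM, filterByExpr, quasi-likelihood F test) in R 4.3.3, with p-values adjusted by Benjamini-Hochberg over all genes of a fit. The fits held IFN-γ and PBS; the 4 IFN-γ groups (Model A and peptide against peptide); the 6 peptide groups (Model B); the 4 groups without IFN-γ; and all 8 groups (interactions). The script was tested on simulated data. Alternatives were DESeq2 1.42.0, its size factors, no filter, other sets of libraries, a replicate block and leaving out replicates. The members and lists were chosen with earlier results of these data known. Named genes were the 5 members, up to 12 genes a list called in IFN-γ against PBS or Model A, genes near 0, and the 3 genes of most similar pattern per member. A few genes that passed the adjusted p alone (Vav1, Cybc1, Arhgdib, Prkcd, Cd68, Csf1r, Lyz2, Cd14), Rac1, Nox1, and the values of Spi1 and Crebbp were named after their values were seen. Over 24 replicate pairs, chi-square divided by its degrees of freedom was at least 3.89, so each library was counted as 1 replicate. Intervals cover the spread between libraries as edgeR estimates it, and floors cover counting error only. Some genes of the lists are not reported here.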

Additional observations from a re-analysis of the deposited data

Results flagged for a closer look

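The effect of IFN-γ differed between cells with and without a peptide, by the interaction term in edgeR, in 5 of 15 tests of a subunit. Over all genes the term passed in 38.5% with LE, 19.8% with SE and 0% with PE, so the count of 3, 2 and 0 subunits of 5 does not set them apart, and 4 of the 5 were lost when a replicate was left out. With LE the terms on the log2 scale were 1.09 for Cybb, -0.32 for Cyba and -0.31 for Ncf4, and with SE they were 0.53 for Cybb and 0.40 for Rac2. That of Cybb with LE was the only term over 1.5-fold. It was the one not lost, and it kept its direction and passed the test in each of the 3 settings that left out a replicate, and it turned negative where the HLA-labelled libraries were used.

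The HLA-labelled libraries stand outside the comparisons. Those labelled LE had at least 1751.93 CPM of Cybb and those labelled PE at least 1721.11 CPM, above all 3 HLA-labelled PBS libraries, whose highest value was 341 CPM. Their IFN-γ targets had a mean log2(CPM + 1) of 6.91 to 6.94 (LE) and 6.77 to 6.89 (PE), against 2.58 to 2.74 in the HLA-labelled PBS libraries. In the deposited table no HLA-labelled group stands beside the letter columns of its own label. The libraries labelled LE and PE follow the letter columns of SE+IFN-γ and LE+IFN-γ, and all 24 HLA-labelled libraries had IFN-γ targets on the side of the group of the letter columns before them. The labels were kept, since column order assigns no sample, and the group behind these values is uncertain. Groups of 3 libraries are too small for a test of single outlying libraries.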

How the results depend on the processing

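The count of called subunits kept within 1.5 times its value in all 16 comparisons with DESeq2, its size factors, no filter on low counts or the replicate block, and in the 13 comparisons run with all 8 groups in 1 fit. Same-numbered libraries were not paired: their deviations correlated at -0.103 to 0.234 (median 0.0370), and in 0 of 19 group pairs were all correlations over 0.1. With the replicate block the number called stayed at 1 for IFN-γ against PBS, while 8 further values passed the adjusted p. No fold change that passed the adjusted p in either fit turned sign. Leaving out 1 replicate of every group lost 13, 3 and 9 of the 42 values past the adjusted p (replicates 1, 2 and 3) and reversed none. The number called then ranged from 0 to 1 in Model A for LE, SE and PE, in SE against PBS and in the interaction of SE. Depth did not limit the subunits, which had at least 4195 counts in every letter-labelled library.

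With the HLA-labelled libraries the values changed throughout. Of these, 12 of 24 went against their IFN-γ label, and none stands in the table beside the letter columns of its own group, so these values may set other groups against each other than their names say and are no test of whether the results repeat. Using both series, 0 subunits were called for IFN-γ against PBS, Model A of LE and SE, Model B of LE and SE, SE against PBS, LE against SE, LE against PE and the interaction of LE, and 1 for Model B of PE. With the series as a block, 0 were called for IFN-γ against PBS, Model A of SE, Model B of SE, SE against PBS, LE against PE and the interaction of LE, and 1 for Model B of LE and PE. In the HLA-labelled libraries alone, 0 were called for IFN-γ against PBS, Model A of SE, Model B of SE, SE against PBS and LE against PE. There 1 was called for Model A and Model B of PE and SE against PE, 2 for PE against PBS and the interaction of PE, and 3 for LE against PBS and the interaction of LE.

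A value is listed as turned if its sign changed and its adjusted p was under 0.05 before or after the change of libraries. Changes of sign outside this rule are not listed. By this rule, the turned log2 values of Cybb in the HLA-labelled libraries alone were 1.66 (Model A, PE) and -0.97 and -0.65 (Model B, LE and PE). Against PBS they were 2.70, 0.19 and 2.58 (LE, SE and PE), and against PE under IFN-γ -0.21 and -1.49 (LE and SE). In the interactions of LE and SE they were -1.24 and -0.023. For Ncf1 they were 0.24 (IFN-γ against PBS), -0.19 (Model A, LE), 0.18 (Model B, SE), -0.43 and -0.18 (LE against SE and PE) and -1.11 (interaction of LE). For Rac2 they were 0.078 (IFN-γ against PBS), -0.023 and -0.23 (Model A, LE and PE), and -0.65 and -0.47 (interactions of LE and PE). Cyba turned to -0.029 (Model A, PE) and 0.12 (Model B, SE), and Ncf4 to -0.18 (PE against PBS). With both series Cybb turned to 0.59 (Model A, PE), -0.26 (Model B, PE), 1.65 (PE against PBS), -0.60 (SE against PE) and -0.80 (interaction of LE), and Ncf1 to -0.027 (LE against SE). With the series as a block these were 0.70, 0.94, -0.69 and -0.63 for Cybb (Model A of PE, PE against PBS, SE against PE, interaction of LE) and -0.053 for Ncf1 (LE against SE). The cause was not tested beyond these checks of the labels.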
